A study of Rattus norvegicus with 8 samples.

Results

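Sox10, Egr2, Cnp, Pllp and Ngfr, 5 genes of the glial lineages that make myelin, were followed on the arrays by gene name. Every probe set annotated to one of them was taken, whatever its signal. This gave 6 probe sets, 2 of them for Ngfr, out of 7006 probe sets that carried a single symbol, for 4736 genes. RNA of the C6 rat glioma line had been hybridised to 8 oligonucleotide arrays in a study that the labels describe with the word migration, and the arrays fell into 4 groups of 2: fast cells labelled C6SPGFP, slow cells labelled C6SPGFP, fast C6 cells and slow C6 cells. All 4 groups come from the same glioma line. The sources used here do not say what C6SPGFP stands for or how fast and slow cells were told apart. Nor do they say whether the 2 arrays of a group held separate cultures, so a p-value here reflects the spread of these samples alone, possibly a technical one. Each array gives the RNA of a whole sample, in which fewer cells of a kind and less RNA per cell cannot be told apart.

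Myelin is the membrane sheath that oligodendrocytes in the brain and Schwann cells in the nerve wrap around axons. SOX10 is an HMG-box transcription factor of the neural crest and of both of these glial lineages, and EGR2 (Krox20) is a zinc finger factor that Schwann cells need in order to myelinate and that lies downstream of SOX10 there. CNP, a cyclic nucleotide phosphodiesterase, and PLLP (plasmolipin), a small membrane-spanning protein, are components of myelin, and NGFR is the p75 receptor for neurotrophins, made by neural crest cells and by Schwann cells that do not myelinate.

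Promoter sequences are shown for the members that a RefSeq table of the rat assembly GRCr8 lists, since their RNAs are compared below across the same arrays, and they cover 250 bases before and 50 bases after the annotated start of the gene. The table matched 3 of the 5 genes, Egr2, Cnp and Pllp; Sox10 and Ngfr are named only. The capitals mark a match to a core motif of SOX factors.
Egr2 promoter, chr20:21054392-21054691, minus strand: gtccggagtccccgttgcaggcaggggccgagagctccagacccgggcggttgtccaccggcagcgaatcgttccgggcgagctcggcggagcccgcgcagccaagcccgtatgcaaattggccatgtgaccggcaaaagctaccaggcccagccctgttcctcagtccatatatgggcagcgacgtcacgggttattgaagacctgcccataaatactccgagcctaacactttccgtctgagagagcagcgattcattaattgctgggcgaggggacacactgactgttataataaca
Cnp promoter, chr10:86011254-86011553, plus strand: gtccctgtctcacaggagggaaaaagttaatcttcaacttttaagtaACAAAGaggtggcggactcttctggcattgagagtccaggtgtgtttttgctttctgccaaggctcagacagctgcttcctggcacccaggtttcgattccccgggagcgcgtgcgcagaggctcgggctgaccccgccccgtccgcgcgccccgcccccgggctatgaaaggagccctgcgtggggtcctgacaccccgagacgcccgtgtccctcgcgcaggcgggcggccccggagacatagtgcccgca
Pllp promoter, chr19:10320830-10321129, plus strand: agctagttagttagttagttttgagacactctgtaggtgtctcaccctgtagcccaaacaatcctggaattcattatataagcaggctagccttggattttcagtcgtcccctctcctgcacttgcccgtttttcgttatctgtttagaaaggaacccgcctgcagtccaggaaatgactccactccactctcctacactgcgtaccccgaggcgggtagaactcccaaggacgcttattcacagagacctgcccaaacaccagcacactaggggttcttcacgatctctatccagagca
The letters ACAAAG and ACAATG, cores bound by SOX factors, and GCGTGGGCG, the site of EGR factors, were searched on both strands, and no match overlapped another. The Cnp window held ACAAAG once, on the plus strand, with its first base at position -203 from the start site. The Egr2 and Pllp windows held none of these letters. Of 33469 promoter windows of the same length, 18.78% held ACAAAG, 13.22% held ACAATG, 29.13% held at least one of both and 0.5438% held GCGTGGGCG, so a single SOX core in 3 windows is a description and no site. The G and C content was 59% for Egr2, 63.33% for Cnp and 49.67% for Pllp, against a median of 51.67% over all windows.

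The deposited signal of each array had been scaled alone: its 2% trimmed mean was 100.1 to 105.8 on 7 arrays and 500.5 on C6SPGFP fast replicate 1. Signals were therefore quantile normalised to a common distribution before any comparison and are given below in those units. Across probe sets, Pearson's r of log2 signal was 0.977 to 0.984 between replicates, 0.972 to 0.980 between C6SPGFP fast and C6SPGFP slow arrays and 0.948 to 0.959 between C6 fast and C6 slow arrays, and probe sets are not independent replicates. Vim, the intermediate filament that C6 cells make in quantity, averaged 3716 ± 162 in C6SPGFP fast, 3179 ± 109 in C6SPGFP slow, 2658 ± 91.3 in C6 fast and 2881 ± 284 in C6 slow cells (SD, n = 2 each). Gfap is not used here. The 3'/5' signal ratios of the control transcripts were 0.959 to 1.06 for Gapdh and 1.01 to 1.13 for actin. For hexokinase they were 1.75 and 1.65 in C6SPGFP fast, 1.75 and 1.47 in C6SPGFP slow, 1.91 and 1.61 in C6 fast and 2.10 and 1.92 in C6 slow cells. Each group had 2 arrays, and the precision of its values is limited by that.

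Sox10, probe set AJ001029_at, had a normalised signal of 433 and 411 in C6SPGFP fast cells and of 531 and 571 in C6SPGFP slow cells. In C6 it stood at 2.23 and 0.900 in fast cells, against 240 and 367 in slow cells. Both C6 fast arrays lay below the 25th percentile of all values, 7.55, where a signal is not shown to be above background, while the other 6 arrays lay far above it. No group overlapped another, and the order of the group means was C6SPGFP slow (551), C6SPGFP fast (422), C6 slow (304) and C6 fast (1.56). Neighbours at the top of that order were close: the gap between the lowest C6SPGFP fast array and the highest C6 slow array was smaller than the gap between the 2 C6 slow arrays.

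Egr2, probe set U78102_at, had signals of 181 and 221 in C6SPGFP fast cells and of 272 and 284 in C6SPGFP slow cells. In C6 the signals were 12.4 and 13.5 in fast cells, against 87.1 and 40.5 in slow cells. The groups kept the order seen for Sox10 without overlap, but the C6 slow arrays differed from each other by more than a factor of 2. The C6 fast signals of Egr2 were low, and unlike those of Sox10 they stood above the 25th percentile of all values.

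Cnp, probe set L16532_at, gave 647 and 655 in C6SPGFP fast cells, 1199 and 1292 in C6SPGFP slow cells, 97.0 and 81.0 in C6 fast cells and 386 and 516 in C6 slow cells. It had a clear signal in every group, lowest in C6 fast cells and highest in C6SPGFP slow cells, with no overlap between groups. Pllp, probe set Z49858_at, gave 164 and 148 in C6SPGFP fast cells and 173 and 158 in C6SPGFP slow cells, where the arrays of both groups overlapped. In C6 its signals were 0.913 and 0.900 in fast cells, against 1.88 and 11.3 in slow cells, and 3 of these 4 arrays lay below the 25th percentile of all values. Pllp thus had a clear signal in C6SPGFP cells and was at or near the floor of the arrays in C6 cells, and it passed the filter on low signals, a mean of 8 over the arrays, only through the C6SPGFP arrays.

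Ngfr had 2 probe sets, and they did not agree. X05137_at gave 900 and 736 in C6SPGFP fast cells, 1129 and 1111 in C6SPGFP slow cells, 113 and 110 in C6 fast cells and 381 and 415 in C6 slow cells. Its groups did not overlap and stood in the same order as those of Sox10, Egr2 and Cnp. How often the groups of other probe sets kept apart was not counted. The lack of overlap here and for Sox10, Egr2 and Cnp is therefore a description. U25650_f_at gave 384 and 416 in C6SPGFP fast cells, 432 and 415 in C6SPGFP slow cells, 287 and 376 in C6 fast cells and 334 and 403 in C6 slow cells. That probe set stayed within a narrow range on all 8 arrays, with overlap between fast and slow arrays in both sets. The suffix f marks, in the maker's naming, a set whose probes can match several transcripts, and statements on Ngfr below refer to X05137_at unless the other is named.

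**Figure D1:**
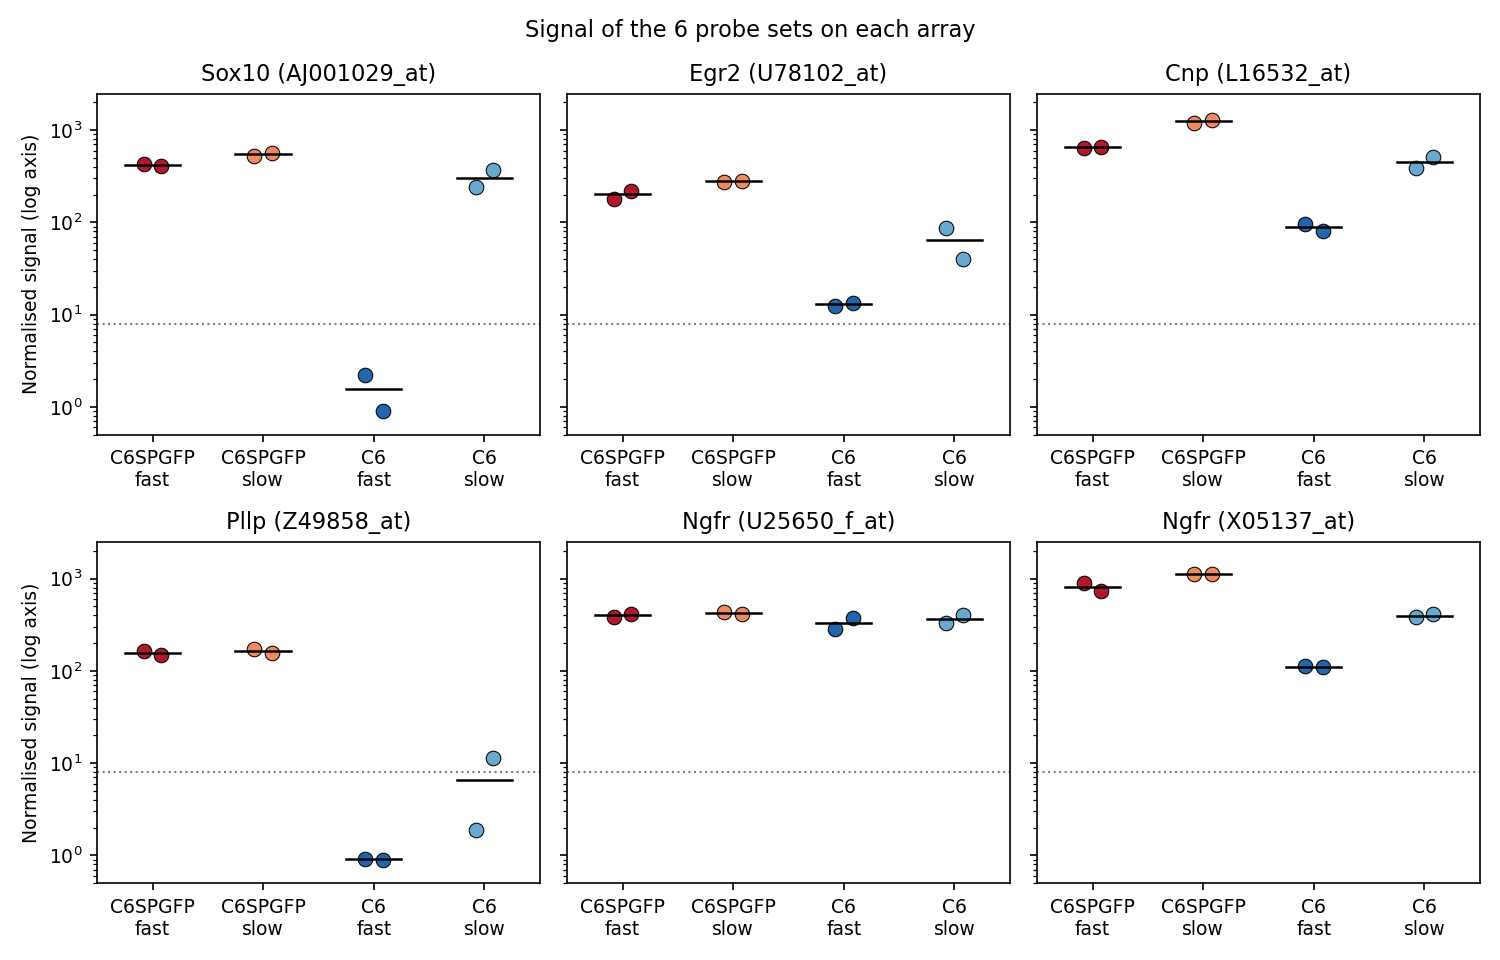
Normalised signal (log axis) of the 6 probe sets on each array, with groups from left to right C6SPGFP fast, C6SPGFP slow, C6 fast and C6 slow. Points are arrays, bars are the means of 2 arrays and the dotted line is the pseudocount of 8. Sox10 and Pllp drop below the line in C6 fast cells, at means of 1.56 and 0.906, while the Ngfr probe set U25650_f_at stays between 287 and 432.

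Fast cells were first set against slow cells within C6. Sox10, Cnp, Egr2 and Ngfr were lower in fast C6 cells, Sox10 by the most, and Pllp and the second Ngfr probe set did not pass the test. On the log2 scale of signal plus a pseudocount of 8, the fast minus slow difference of Sox10 was -5.00 ± 0.22 (SE, limma adjusted p = 5.86e-06), a 32.02-fold lower value on that scale and the second lowest of 6684 probe sets tested. The 2 fast signals lay near the floor, so this size depends on the pseudocount: it was -6.91 with a pseudocount of 1 and -3.30 with 32. Cnp differed by -2.23 ± 0.18 (adjusted p = 0.000138), Ngfr by -1.76 ± 0.15 (adjusted p = 0.000221) and Egr2 by -1.70 ± 0.30 (adjusted p = 0.0107) in the same limma fit. Pllp was at -0.63 ± 0.31 (adjusted p = 0.313), with a 95% interval of -1.33 to 0.07, and Ngfr U25650_f_at at -0.15 ± 0.18 (adjusted p = 0.719). Of the 6 probe sets 4 were called lower and 0 higher, where 3.96% of all probe sets tested were called lower and 2.69% higher. The call of Egr2 was lost without C6 fast replicate 1 (limma adjusted p = 0.0571) or without C6 fast replicate 2 (adjusted p = 0.0562) and when only the arrays compared were fitted (-1.48, adjusted p = 0.0619), and Pllp was called at -1.15 (adjusted p = 0.0432) without C6 slow replicate 1. With the deposited scaling kept, Sox10 was the 1 probe set of the 6 that was called.

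In C6SPGFP the same genes were measured well above the floor in fast and slow cells alike. Cnp was lower in fast cells, with a mean of 651 ± 5.61 against 1245 ± 65.8 in slow cells (SD, n = 2 each), a log2 difference of -0.93 ± 0.18 (limma adjusted p = 0.0453), while with the deposited scaling its sign turned, at 0.27. The other 5 probe sets did not pass: Sox10 was at -0.38 ± 0.22 (limma adjusted p = 0.635) with an interval of -0.88 to 0.13, and Egr2 at -0.46 ± 0.30 (adjusted p = 0.676). Ngfr was at -0.46 ± 0.15 (adjusted p = 0.300), its fast arrays below its slow arrays, and Pllp at -0.08 ± 0.31 (adjusted p = 0.965). The share of all probe sets called lower here was 0.329% and the share called higher 1.06%. The call of Cnp was lost without any one of 6 arrays, the C6 fast and all C6SPGFP arrays, with limma adjusted p-values of 0.0568 to 0.348, and 0 of the 6 probe sets were called with the deposited scaling.

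The test of the difference between these 2 changes, C6SPGFP minus C6, asks whether fast and slow cells stood apart to an unequal degree in the sets. It was positive for Sox10 at 4.62 ± 0.31 (limma adjusted p = 0.000126), for Ngfr at 1.31 ± 0.21 (adjusted p = 0.0114) and for Cnp at 1.31 ± 0.25 (adjusted p = 0.0243), so their fast minus slow differences were less negative in C6SPGFP than in C6. For Egr2 (1.24 ± 0.42, limma adjusted p = 0.195) and Pllp (0.55 ± 0.43, adjusted p = 0.617) the difference did not pass, and the interval for Egr2 ran from 0.28 to 2.21. Over all probe sets 2.71% were called higher and 1.11% lower in this test, against 3 and 0 of the 6. The call of Sox10 was kept without each array and with the deposited scaling, under which the other calls were lost. The call of Cnp was lost without C6 fast replicate 2 or any one C6SPGFP array (limma adjusted p from 0.0724 to 0.113), that of Ngfr without either C6SPGFP slow array or C6SPGFP fast replicate 1 (0.0592 to 0.0719), and Egr2 was called at 1.75 (0.0232) without C6 slow replicate 2.

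Among fast cells, Sox10, Egr2, Cnp and Ngfr were higher in C6SPGFP than in C6. The C6SPGFP minus C6 difference was 5.49 ± 0.22 for Sox10 (limma adjusted p = 2.73e-06), the third highest of all probe sets tested. Egr2 followed at 3.32 ± 0.30 (limma adjusted p = 0.000196). Ngfr stood at 2.78 ± 0.15 (limma adjusted p = 1.16e-05), Cnp at 2.77 ± 0.18 (adjusted p = 2.71e-05) and Ngfr U25650_f_at at 0.27 ± 0.18 (adjusted p = 0.365). Leaving Pllp aside, 4 of the other 5 probe sets were called higher and 0 lower, beside 8.29% of all probe sets called higher and 7.3% called lower. The same 4 were called without each array in turn and with the deposited scaling. Pllp passed the filter only through the C6SPGFP arrays and so had to differ between the sets: its difference, 4.20, is a description with no test, its C6 fast signals were at the floor, and the value ran from 2.51 to 6.36 over the alternatives. As C6 fast cells had Sox10 near the floor too, the size of its difference is set in part by the pseudocount.

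Among slow cells, Egr2, Cnp and Ngfr were higher in C6SPGFP than in C6. Egr2 differed by 2.07 ± 0.30 (limma adjusted p = 0.00627), Ngfr by 1.48 ± 0.15 (adjusted p = 0.00132) and Cnp by 1.46 ± 0.18 (adjusted p = 0.00285). Sox10 was at 0.87 ± 0.22 (limma adjusted p = 0.0563) with an interval of 0.37 to 1.38, and Ngfr U25650_f_at at 0.20 ± 0.18 (adjusted p = 0.577). Of all probe sets 3.29% were called higher and 3.05% lower, against 3 and 0 of the 5 besides Pllp. Pllp had a mean signal of 165 ± 10.4 in C6SPGFP slow against 6.61 ± 6.69 in C6 slow cells (SD, n = 2 each), where the C6 values were at or near the floor, and its log2 difference of 3.65, again with no test, ran from 2.36 to 4.80 over the alternatives. Sox10 passed under 4 alternatives, among them without C6 slow replicate 2 (limma adjusted p = 0.0246), the call of Egr2 was lost without C6SPGFP slow replicate 2 (adjusted p = 0.0580), and 0 of the 6 were called with the deposited scaling. The comparisons share arrays with one another, so their values for a gene are not independent.

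**Figure D2:**
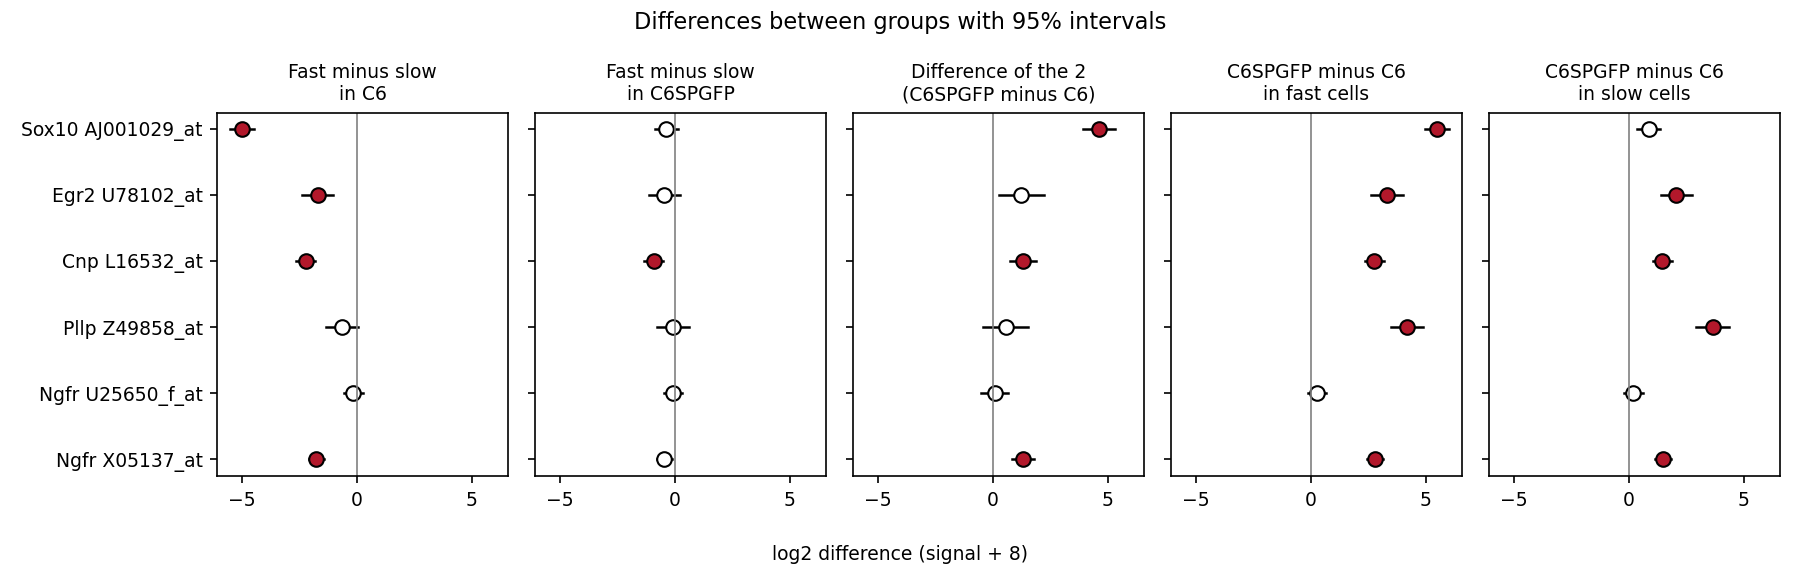
Log2 differences of signal plus 8 for the 6 probe sets in 5 comparisons, from left to right fast minus slow in C6, fast minus slow in C6SPGFP, the difference of these, and C6SPGFP minus C6 in fast and in slow cells. Points are fitted differences, lines their 95% intervals, filled points have a limma adjusted p under 0.05, and all signs are those under quantile normalisation. Between the sets Pllp's difference is a description, since it passed the filter only through the C6SPGFP arrays. Sox10 lies at -5.00 in C6 and at -0.38 in C6SPGFP.

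The other genes of these lineages were taken from a list of 75, of which 42 had a named probe set and 41 were tested. In fast against slow C6 cells 3 were called higher and 3 lower, beside 2.69% and 3.96% of all probe sets, and the median over the list was -0.15, beside 0.01 over all probe sets tested. Those lower were Ptprz1, a receptor phosphatase of glial progenitors (-3.27 ± 0.25), the tetraspanin Cd9 (-2.61 ± 0.20) and S100b, a calcium-binding glial protein (-2.50 ± 0.16), with limma adjusted p-values of 0.000124, 0.000130 and 5.28e-05. Ptprz1 averaged 1.46 in C6 fast cells, near the floor, and its difference ran from -5.11 to -1.79 over the alternatives. Those higher were the carbonic anhydrase Car2 (2.36 ± 0.28), Id3, an inhibitor of basic helix-loop-helix factors (0.87 ± 0.14), and Egr1, a relative of Egr2 (0.78 ± 0.16), with limma adjusted p-values of 0.00133, 0.00677 and 0.0226. The call of Egr1 was lost without any one of 5 arrays, the 4 of C6 and C6SPGFP slow replicate 1, with adjusted p-values up to 0.0860. A second probe set of Cd9 (-2.29) was called in the same direction, and those of Ptprz1 (-1.08, adjusted p = 0.0601) and Id3 (0.94, adjusted p = 0.0515) missed the threshold. That of Car2 averaged 38.0 in C6 fast cells and 1.38 to 1.87 in the other groups. It passed the filter only through the C6 fast arrays, so its difference, 2.22, is a description with no test. A second probe set of S100b, with group means of 10.3 to 20.4, was at -0.19, and of 3 further ones of Egr1 1 was called (1.31) and 2 were not (0.24 and 0.26).

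The 9 tested genes for structural proteins of myelin held 1 call in fast against slow C6 cells, that of Cd9, lower in fast cells. Of all probe sets 3.96% were called lower there and 2.69% higher. Mbp, the basic protein of compact myelin, had group means of 9.85 in C6SPGFP fast, 6.41 in C6SPGFP slow, 11.98 in C6 fast and 13.8 in C6 slow cells, at or near the floor in all 4 groups, and its fast minus slow difference in C6 was -0.16 ± 0.38 (limma adjusted p = 0.880). Mag, an adhesion protein of the inner myelin membrane, averaged 100.1 in C6SPGFP fast, 87.8 in C6SPGFP slow, 68.4 in C6 fast and 107 in C6 slow cells, and was at -0.61 ± 0.22 (adjusted p = 0.162). Mog, Mobp, Mal, Gjb1 and Prx, further proteins of central or peripheral myelin, were not called in any of the 5 comparisons either.

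In C6SPGFP, 1 of the 41 lineage genes was called between fast and slow cells, the adhesion molecule Ncam1 (-0.81 ± 0.14, limma adjusted p = 0.0296). Of all probe sets 0.329% were called lower there and 1.06% higher. The list median was 0.02 beside -0.02 over all probe sets. Ncam1 turned to 0.38 with the deposited scaling, and its call was lost without any one C6SPGFP array (adjusted p up to 0.244). In the test of the difference between the sets, Ptprz1 (3.57 ± 0.35), Cd9 (2.64 ± 0.28) and S100b (2.55 ± 0.22) were called higher and Car2 (-2.23 ± 0.40) and Egr1 (-1.45 ± 0.23) lower, with limma adjusted p-values from 0.000433 to 0.0187. Of all probe sets 2.71% were called higher and 1.11% lower in that test. The call of Car2 there was lost without any one C6SPGFP array (adjusted p up to 0.0742) and that of Egr1 without replicate 1 of either C6SPGFP group (up to 0.0594). Ptprz1, Cd9 and S100b thus had the signs of Sox10, Cnp and Ngfr both in C6 and in that test. With the deposited scaling these signs held, but the calls of Ptprz1, Cd9 and S100b were lost. Their limma adjusted p-values were then 0.450 to 0.759 in C6 and 0.260 to 0.524 in that test. Second probe sets of Ptprz1 (1.27) and S100b (0.13) were not called in that test, and that of Cd9 (2.82) was.

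**Figure D3:**
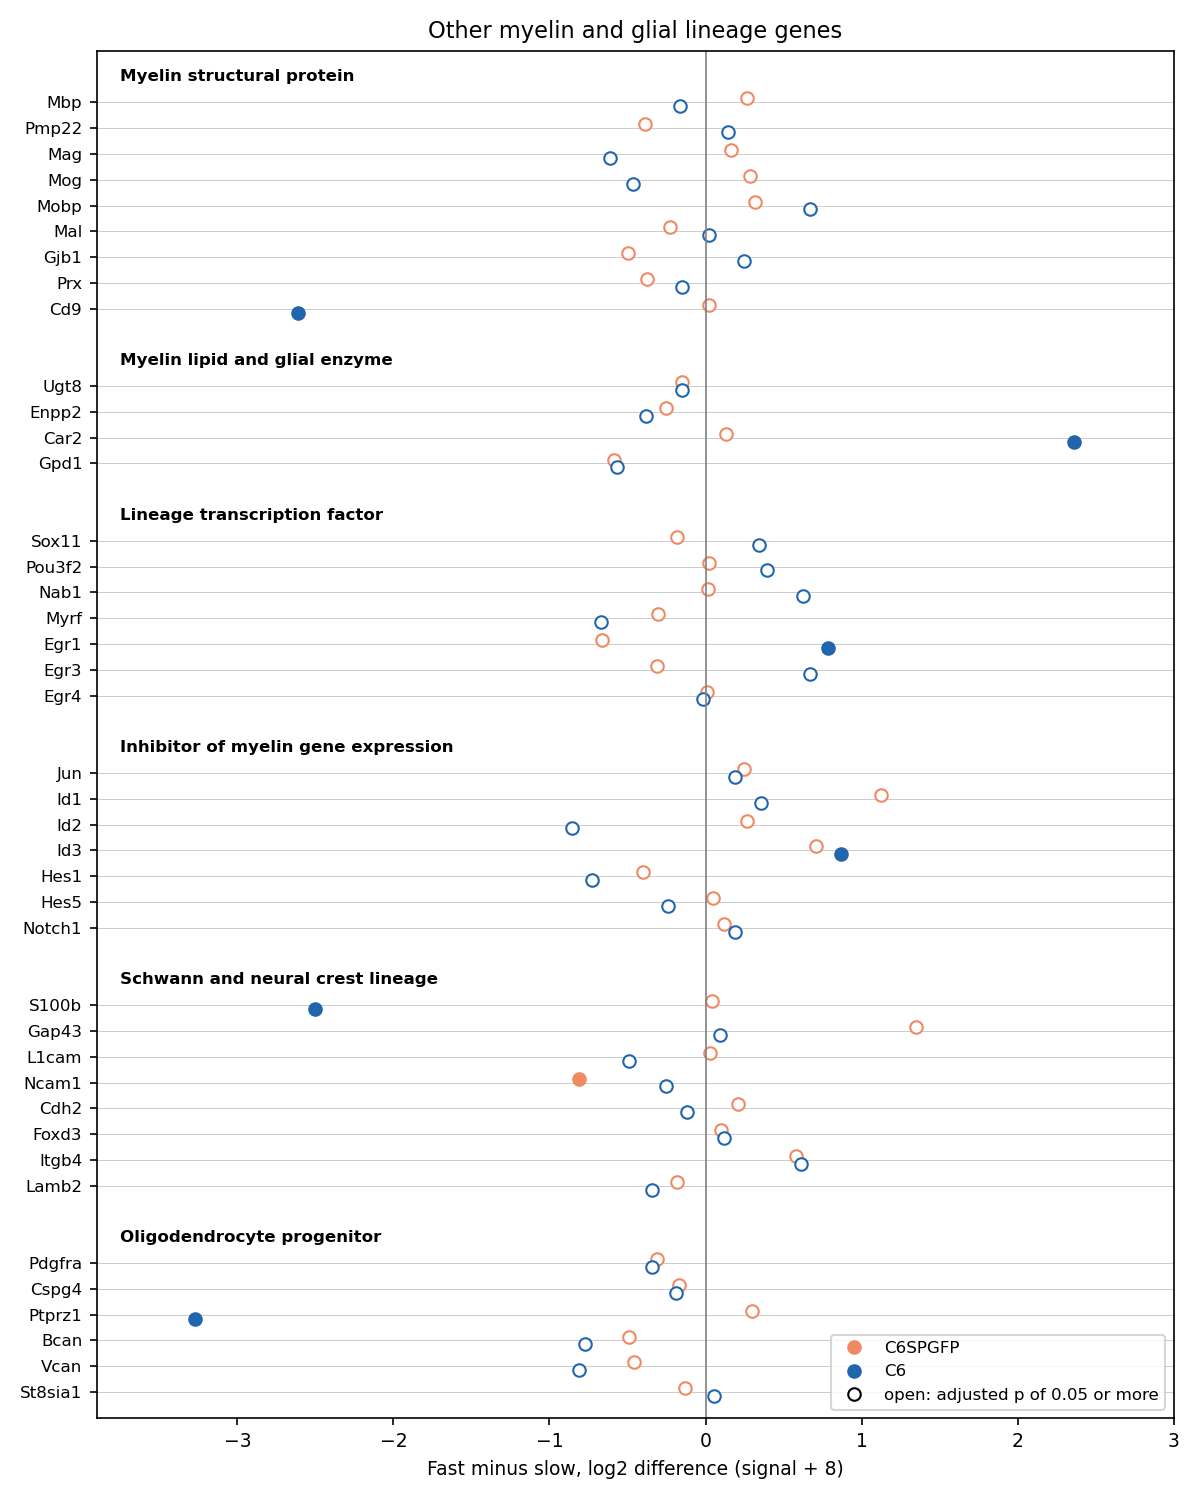
Fast minus slow log2 differences of signal plus 8 for the 41 tested genes of the myelin and glial lineage list, grouped by role, in C6SPGFP (orange) and C6 (blue), under quantile normalisation. Filled points have a limma adjusted p under 0.05. Ptprz1 at -3.27, Cd9 at -2.61 and S100b at -2.50 in C6 lie far to the left, and most genes lie near 0 in both sets.

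Between the sets, C6SPGFP fast cells exceeded C6 fast cells in 8 of the 41 lineage genes and fell below them in 3, beside 8.29% and 7.3% of all probe sets, so the share called lower was the same as over all probe sets. The list median was 0.12 beside -0.03 over all probe sets. The increases were Ptprz1 (5.25 ± 0.25, and 3.52 to 7.17 over the alternatives), S100b (4.11 ± 0.16), Cd9 (3.23 ± 0.20), the brain proteoglycan Bcan (2.13 ± 0.29), Pdgfra, the growth factor receptor of oligodendrocyte progenitors (1.36 ± 0.18), the growth cone protein Gap43 (0.94 ± 0.27), the peripheral myelin protein Pmp22 (0.71 ± 0.18) and Ncam1 (0.57 ± 0.14). Those lower were Car2 (-1.71 ± 0.28), Id3 (-1.39 ± 0.14) and Nab1, a corepressor of EGR factors (-1.38 ± 0.24), and limma adjusted p-values ran from 2.12e-06 for S100b to 0.0475 for Gap43. The calls of Gap43, Pmp22 and Ncam1 were lost without any one of 7, 5 and 6 arrays in that order, with adjusted p-values up to 0.208, 0.143 and 0.165. Other probe sets of Ncam1 (-0.02, limma adjusted p = 0.976), Pmp22 (0.17, adjusted p = 0.774), S100b (0.59, adjusted p = 0.155) and Pdgfra (0.73 and 0.69) were not called. Those of Cd9 (3.17) and Id3 (-1.66) were called in the same direction. Those of Ptprz1 (2.04) and Car2 (-2.29) passed the filter only through the cells where they were high, and are descriptions with no test. In slow cells 8 genes were called higher and 2 lower, beside 3.29% and 3.05% of all probe sets. Those higher were Bcan (1.84 ± 0.29), Ptprz1 (1.68 ± 0.25), Egr1 (1.60 ± 0.16), S100b (1.57 ± 0.16), Pdgfra (1.33 ± 0.18), Pmp22 (1.25 ± 0.18), Ncam1 (1.13 ± 0.14) and the POU factor Pou3f2 (0.90 ± 0.21), and Id3 (-1.23 ± 0.14) and the cadherin Cdh2 (-0.83 ± 0.17) were lower. Their limma adjusted p-values ran from 0.00132 to 0.0420. In slow cells, other probe sets of Pmp22 (0.26), Egr1 (0.41 and 0.13) and S100b (0.46) were not called. Nor were those of Ncam1 (0.65), Ptprz1 (0.78) and Pdgfra (0.99 and 1.05). The limma adjusted p-values of these uncalled probe sets were 0.0946 to 0.824. Another of Egr1 (1.697) and those of Id3 (-1.47) and Cdh2 (limma adjusted p = 0.0186) were called in the same direction. Without C6SPGFP slow replicate 2 the calls of Pmp22, Pdgfra, Bcan, Ptprz1, Pou3f2 and Cdh2 in slow cells were lost, those of Pou3f2 and Cdh2 also without several other arrays (adjusted p up to 0.204), and that of Ptprz1 without C6SPGFP slow replicate 1.

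Genes described as targets of SOX10 in glia or the neural crest were counted in a list of 21, which includes Egr2 and S100b, and 13 of them were tested. In fast against slow C6 cells Egr2, itself a member, and S100b were called lower and none higher, beside 3.96% and 2.69% of all probe sets. The list median was -0.19 beside 0.01 over all probe sets, and the other 11 did not pass. In C6SPGFP 0 of the 13 were called by limma between fast and slow cells, with 1 at an unadjusted p under 0.05, and Sox10 itself did not pass. Of all probe sets 0.329% were called lower there and 1.06% higher. In fast cells of C6SPGFP against C6, Egr2, S100b, Pmp22 and Erbb3, the receptor through which axonal neuregulin reaches Schwann cells, were called higher and none lower. The shares of all probe sets were 8.29% and 7.3%, and the list median was 0.34 beside -0.03. Erbb3 averaged 237 ± 21.2 in C6SPGFP fast and 61.4 ± 25.4 in C6 fast cells (SD, n = 2 each), a log2 difference of 1.87 ± 0.42 (limma adjusted p = 0.0194) whose call was lost without C6 fast replicate 1 or either C6SPGFP fast array (adjusted p up to 0.117). A second probe set of Erbb3 was called higher as well (1.63, limma adjusted p = 0.0052). The gap junction protein Gjb1, Mbp, Mag and Prx, which also belong to that list, did not pass in any of the 5 comparisons.

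Ligands and receptors around Ngfr, the neurotrophins, neuregulin and their receptors, were 12 tested genes of 22 listed, with a median of -0.13 for fast minus slow in C6 beside 0.01 over all probe sets. In fast against slow C6 cells the ligand Bdnf was higher (1.02 ± 0.20, limma adjusted p = 0.0163), and Sort1, the sortilin that pairs with p75 as a receptor for proneurotrophins, was lower (-1.30 ± 0.30, adjusted p = 0.0372). Of all probe sets 2.69% were called higher there and 3.96% lower. The call of Sort1 was lost without any one of 7 arrays, all but C6 slow replicate 1 (adjusted p up to 0.149), and that of Bdnf without either C6 slow array or C6 fast replicate 2 (up to 0.0941). A second probe set of Sort1 was called lower as well (-0.91, limma adjusted p = 0.0454). Among 5 other probe sets of Bdnf, that at 1.55 was called higher, and 3 were not called, at -0.57, -0.35 and -0.09. The remaining probe set averaged 62.2 in C6 fast, 9.90 in C6 slow, 1.525 in C6SPGFP fast and 1.33 in C6SPGFP slow cells. It passed the filter only through the C6 fast arrays, so its difference, 1.96, is a description with no test. In fast cells of C6SPGFP against C6, Sort1 (1.41 ± 0.30), Erbb2 (1.59 ± 0.41) and Erbb3 were called higher, while Bdnf was lower (-0.96 ± 0.20, limma adjusted p = 0.0125) but turned to 0.31 with the deposited scaling. The shares of all probe sets were 8.29% called higher and 7.3% lower. The calls of Sort1 were lost without C6 fast replicate 1 or C6SPGFP fast replicate 1 (adjusted p up to 0.0976), of Erbb2 without C6 fast replicate 2 or any one C6SPGFP array (up to 0.131) and of Bdnf without C6 fast replicate 2 or C6SPGFP fast replicate 1 (up to 0.0704). Second probe sets of Sort1 (0.79) and Erbb3 (1.63) were called higher as well. Other probe sets of Bdnf stood at -1.87 (called lower) and at -0.91, 0.41 and 0.49 (not called). The Bdnf probe set that passed the filter only through the C6 fast arrays was at -2.88, a description with no test. Ntrk2 and Ntrk3, the receptors for Bdnf and Ntf3, were not called in any of the 5 comparisons. In slow cells of C6SPGFP against C6, limma called 0 of the 12 genes by their probe sets of highest mean signal, with 3 at an unadjusted p under 0.05, while a second probe set of Erbb3 was called higher (1.35, adjusted p = 0.0273), and in fast against slow C6SPGFP cells 0, with 0 at an unadjusted p under 0.05. The shares of all probe sets called higher and lower were 3.29% and 3.05% in the former comparison and 1.06% and 0.329% in the latter.

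Markers of other cell types were summed per array beside these results. The 10 neuronal markers with a probe set summed to 212 and 237 in C6SPGFP fast, 259 and 312 in C6SPGFP slow, 140 and 150 in C6 fast and 171 and 213 in C6 slow cells, and 7 of them were tested. The sums of C6SPGFP fast and C6 slow arrays overlapped. Gad1 alone averaged 118 in C6SPGFP fast, 112 in C6SPGFP slow, 2.55 in C6 fast and 24.7 in C6 slow cells. Without it the order of the groups changes. The 1 neuronal marker called in fast against slow C6 cells was Gad1, an enzyme of GABA synthesis (-1.62 ± 0.22, limma adjusted p = 0.00241), whose mean of 2.55 in C6 fast cells lay below the 25th percentile of all values and whose difference ran from -2.85 to -0.71 over the alternatives, while the synaptic markers Syt1, Syn2 and Slc17a7 lay below the filter on low signals. Microglial and haematopoietic markers, 7 with a probe set, summed to 105 to 109 in C6SPGFP fast, 107 in both C6SPGFP slow, 131 to 151 in C6 fast and 85.2 to 92.2 in C6 slow arrays, with Itgam at means of 1.71 to 2.79, and the 7 endothelial and mural markers to 103 to 160 in C6SPGFP fast, 144 to 169 in C6SPGFP slow, 143 to 164 in C6 fast and 140 to 156 in C6 slow arrays. The leukocyte tetraspanin Cd37 was called higher in fast than in slow C6 cells (1.41 ± 0.30, limma adjusted p = 0.0271), a call lost without either C6 slow array, C6 fast replicate 2 or C6SPGFP fast replicate 2 (up to 0.159), and 0 of the 5 tested endothelial and mural markers were called by limma in any of the 5 comparisons, with 0 at an unadjusted p under 0.05. Of all probe sets 2.69% were called higher and 3.96% lower in fast against slow C6 cells, and 8.29% and 7.3% between fast cells of the sets. The part of other cell types in the results was not tested. Of the genes that mark the line, Nes, an intermediate filament of progenitor cells, was lower in fast than in slow C6 cells (-1.98 ± 0.19, limma adjusted p = 0.000420), and Vim was at -0.11 ± 0.10 (adjusted p = 0.611). In fast cells of C6SPGFP against C6, Nes (1.70 ± 0.19), the hyaluronan receptor Cd44 (1.06 ± 0.13) and Vim (0.48 ± 0.10) were called higher, with limma adjusted p-values from 0.000653 to 0.0115. The difference of Vim fell to 0.005 with a common trimmed mean, and its call was also lost without C6 fast replicate 1 or C6SPGFP fast replicate 2. A second probe set of Cd44 (0.65, limma adjusted p = 0.0680) was not called, and that of Nes (1.41) was called higher.

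Likeness of pattern was measured as the root mean square (RMS) difference of log2 values, each centred on its mean over the 8 arrays, and is a description with no test. Among the 5 genes, Cnp and Ngfr were the nearest pair, with an RMS difference of 0.264, followed by Egr2 and Ngfr at 0.420 and Egr2 and Cnp at 0.526. Sox10 stood farther from all of them, at 1.13 from Cnp, 1.26 from Egr2, 1.27 from Ngfr and 1.60 from Pllp. The measure is not scaled for the size of a change. The group means of Sox10 spanned 5.87, and those of Egr2, Cnp, Pllp and Ngfr X05137_at 3.24 to 4.28. The span of Sox10 rests on C6 fast signals near the floor, and so in part on the pseudocount. The centred mean of Pllp in C6 slow cells lay close to its mean in C6 fast cells. Its C6 slow arrays were at -2.13 and -1.16, and its C6 fast arrays both at -2.28. The C6 slow means of Egr2 and Ngfr X05137_at also lay below 0, and those of Sox10 and Cnp above 0. The 2 Ngfr probe sets were 1.12 apart, more than Ngfr X05137_at was from any of Cnp, Egr2 and Pllp.

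Over all tested probe sets with a single symbol, the 5 genes nearest to Sox10 were Tubb2b, a beta-tubulin (0.259), the kinase Aatk (0.443), the neuropeptide gene Calcb (0.466), Pmepa1, an inhibitor of TGF-beta signalling (0.499), and the tetraspanin Cd81 (0.523). Each had its lowest mean in C6 fast cells, which follows from their choice by nearness to Sox10. Tubb2b, for one, averaged 2666 ± 185 in C6SPGFP fast, 3436 ± 111 in C6SPGFP slow, 33.0 ± 1.43 in C6 fast and 1686 ± 79.7 in C6 slow cells (SD, n = 2 each). None of the other 4 members was among them. Nearest to Egr2 were the planar polarity gene Prickle2 (0.285), Gad1 (0.389) and the cytoskeletal adducin Add3 (0.400). Nearest to Cnp were Ngfr (0.264), the kinesin Kifc3 (0.378) and Gas6, a ligand of TAM receptors (0.387), and nearest to Ngfr were the galactosyltransferase B4galt6 (0.258), Cnp (0.264) and the semaphorin coreceptor Nrp1 (0.272). Pllp had no neighbour as close, the nearest being the sodium channel gene Scn7a (0.501), the metallothionein Mt3 (0.532) and Gas7 (0.563), whose means in C6 slow cells were far below those in either group of C6SPGFP cells.

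**Figure D4:**
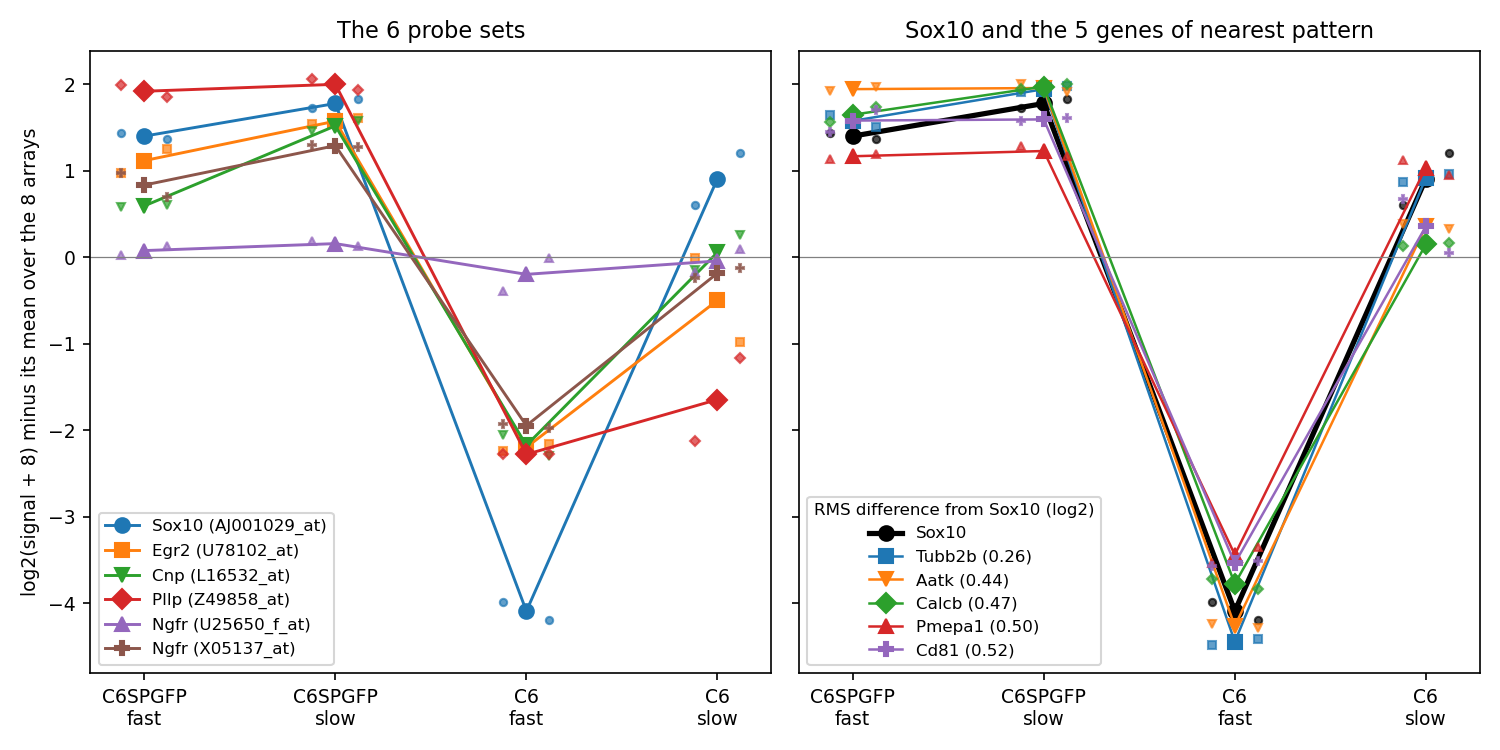
Log2 of signal plus 8 minus its mean over the 8 arrays, for the 6 probe sets (left) and for Sox10 with the 5 genes of nearest pattern (right), by group from C6SPGFP fast to C6 slow. Large points joined by lines are means of 2 arrays, small points are arrays, and legend numbers on the right are RMS differences from Sox10. Every line has its low point in C6 fast cells, a shallow one for Ngfr U25650_f_at. On the right this follows from the choice by nearness to Sox10. Apart from Ngfr U25650_f_at, Pllp is the only probe set on the left whose C6 slow mean lies near its C6 fast mean.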

How the data were processed

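The authors deposited linear signals, one intensity per probe set and array, which from the values were scaled array by array. The software behind them is not given in the sources of this text. The table held 8799 probe sets, 59 of them controls, on 8 arrays, and all its columns belong to the 8 samples. The columns were quantile normalised in R 4.3.3, and log2 was taken of signal plus 8. Testing was limited to 6684 probe sets whose normalised signal averaged 8 or more, which left out 2056. The 4 group means were estimated with limma 3.58.1 (lmFit, eBayes with trend; 4 residual and 4.49 prior degrees of freedom), two-sided, with Benjamini-Hochberg adjustment over all probe sets tested in a comparison, and a call is an adjusted p under 0.05. The procedure was tested on simulated data. Before adjustment, a p under 0.05 was found for 1296 probe sets in fast minus slow in C6, 648 in C6SPGFP, 1030 for their difference, 1932 between the sets in fast and 1401 in slow cells.

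Single gene symbols were given to 7006 probe sets by the platform's table, several to 308 and none to 1426, and 6985 were updated through Entrez identifiers in a GRCr8 table. A listed gene is represented by its probe set of highest mean signal. Named genes are all members, every list gene called in a comparison, Vim, S100b and Nes, and the 5 genes (Sox10) or 3 genes (other members) of nearest pattern. Gfap, planned as a marker of the line as well, is not used. Mbp, Mag, other myelin genes, Ntrk2, Ntrk3, Itgam and the synaptic markers were named as well, and examples among them were chosen after their values were seen. The members, lists and tests were chosen with earlier results of these data known. Alternatives covered normalisation, pseudocount, filter, moderation, the arrays in the fit, a block on replicate number and each array left out. Detection calls are not used here.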

Additional observations from a re-analysis of the deposited data

Results flagged for a closer look

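For 3 of the 6 probe sets the change between fast and slow cells differed between the sets by a test of the difference itself (C6SPGFP minus C6, limma, adjusted over all 6684 probe sets). The values were 4.62 ± 0.31 (log2, SE) for Sox10 (adjusted p = 0.000126), 1.31 ± 0.25 for Cnp (adjusted p = 0.0243) and 1.31 ± 0.21 for Ngfr X05137_at (adjusted p = 0.0114). The call of Sox10 was kept without each array, while those of Cnp and Ngfr were lost without any one of 5 arrays (adjusted p up to 0.113) and 3 arrays (up to 0.0719). Sox10 signals were 433 and 411 in C6SPGFP fast and 531 and 571 in C6SPGFP slow cells, and 2.23 and 0.900 in C6 fast and 240 and 367 in C6 slow cells.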

How the results depend on the processing

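Over all alternatives, 455 of 503 member values kept their direction and side of the threshold, 33 lost a call, 6 gained one and 9 changed sign. The causes were not tested. The 503 values include those of Pllp between the sets, which are descriptions with no test. With the deposited scaling, the median of all probe sets for fast minus slow in C6SPGFP was 1.04 in place of -0.02, and the members there changed sign, to 0.77 (Sox10), 0.68 (Egr2), 0.27 (Cnp), 1.02 (Pllp), 0.71 (Ngfr X05137_at) and 1.08 (Ngfr U25650_f_at). Ncam1 did so at 0.38, and Bdnf (0.31) and Cd37 (0.12) did between fast cells of the sets. Ngfr U25650_f_at ranged in C6 from -0.35 without C6 fast replicate 2 to 0.037 without C6 fast replicate 1, and changed sign on the difference (-0.12) without C6 fast replicate 1 and (-0.06) without C6 slow replicate 2.

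Probe sets called numbered 445 for fast minus slow in C6, 93 in C6SPGFP, 255 for the difference, 1042 between the sets in fast and 424 in slow cells. With the deposited scaling they were 20, 15, 24, 182 and 2, of which 45%, 100%, 95.8%, 94.0% and 50% were higher, in place of 40.4%, 76.3%, 71.0%, 53.2% and 51.9%, and the member calls, Pllp included, were 1, 0, 1, 5 and 0. Under that scaling, list genes kept 0 of 11 calls in C6, 0 of 1 in C6SPGFP and 0 of 7 on the difference. Between the sets they kept 6 of 20 in fast and 0 of 11 in slow cells. Fitting only the arrays compared gave 250 probe sets called in C6. The member call in C6SPGFP went to 0 with a common trimmed mean, pseudocount 1, no filter, no trend or the replicate block. Leaving out each array gave 279 to 446, 21 to 107, 123 to 273, 509 to 1127 and 95 to 421 calls, with 3 to 5, 0 to 1, 1 to 4, 5 and 3 to 5 member calls.

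Replicate numbers are shared between groups, but nothing says that they pair samples. The correlation of replicate deviations was 0.27 between C6 fast and C6 slow and 0.10 between C6SPGFP fast and C6SPGFP slow cells. With the replicate number as a block the calls were 424, 87, 235, 989 and 392, and the member calls 4, 0, 3, 5 and 4. Member calls between the sets, here and with each array left out, include Pllp, whose difference there is a description with no test.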
